A study of Rattus norvegicus with 17 samples.

Results

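Glutathione S-transferases (GSTs) were followed across 5 dose groups in male rat liver through 7 genes, chosen by name: Gsta1, Gsta3 and Gsta4 of the alpha class, Gstm1 and Gstm2 of the mu class, Gstp1 of the pi class and Gstt1 of the theta class. They are 7 of 14217 genes represented on the array, and each had 1 probe set carrying its symbol alone. Liver RNA came from 17 male Harlan Sprague-Dawley rats, each measured on its own array. Isopropylated phenol phosphate (IPP), a mixture of aryl phosphate esters used as a flame retardant and plasticizer, was given by oral gavage in corn oil once daily for 4 days at 76.5, 153, 305.5 or 611 mg/kg body weight, with 3 rats per dose. Corn oil alone, given on the same schedule, was the vehicle of 5 rats, written as dose 0. Pieces of the left lobe were taken on the day after the last dose.

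GSTs join the sulfhydryl group of glutathione to electrophilic carbons, which makes reactive compounds water soluble and ready for export as conjugates. The soluble enzymes are dimers whose classes differ in sequence and in favoured substrates. Alpha and mu enzymes are abundant proteins of rat hepatocytes, whereas the pi enzyme is scarce in normal rat hepatocytes, is found in bile duct cells and is a widely used marker of preneoplastic foci. Many rat GST genes can be induced through antioxidant response elements bound by NRF2 and through the xenobiotic receptors CAR and PXR.

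The genes lie in clusters of related copies in the RefSeq annotation of the rat (GRCr8), which bears on what a probe set can separate. Gsta3 and Gsta1 are neighbours on chromosome 9, and Gsta4 lies beside Gsta5 and Gsta2 on chromosome 8. Gstm2 and Gstm1 are neighbours on chromosome 2, Gstp1 lies beside Gstp3 on chromosome 1, and Gstt1 lies between Gstt4 and Gstt3 on chromosome 20. A further probe set labelled with both Gsta5 and Gsta2 was given to neither gene. Whether RNA of close copies binds the probe sets of these 7 genes was not tested.

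RefSeq promoter windows of 300 bases (250 before and 50 after the annotated start) were found for 6 of the 7 genes, all but Gstt1. Gsta3 had 2 annotated starts, which made 7 windows. The core of the antioxidant response element was searched as TGACNNNGC on both strands. It was found once each in the windows of Gsta1, Gsta3 (1 of its windows) and Gstp1, all on the gene's strand, in 4 of 13 windows of other GST genes and in 12.1% of all 33469 promoter windows. No core was found in the windows of Gsta4, Gstm1 and Gstm2 or in the other window of Gsta3. Positions count from the annotated start. The core began at position 30 in Gsta1, at position -17 in Gsta3 and at position -61 in Gstp1. The 3 windows are shown 5′ to 3′ with the core in capitals. The Gsta1 window is chr9:31216483-31216782 (minus strand), that of Gsta3 is chr9:31154739-31155038 (plus strand) and that of Gstp1 is chr1:210769656-210769955 (minus strand), all in GRCr8.
Gsta1: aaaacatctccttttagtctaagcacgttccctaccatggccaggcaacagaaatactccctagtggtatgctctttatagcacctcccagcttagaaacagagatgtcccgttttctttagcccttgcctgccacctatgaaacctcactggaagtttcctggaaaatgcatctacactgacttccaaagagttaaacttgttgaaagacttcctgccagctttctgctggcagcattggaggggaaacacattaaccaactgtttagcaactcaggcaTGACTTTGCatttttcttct
Gsta3: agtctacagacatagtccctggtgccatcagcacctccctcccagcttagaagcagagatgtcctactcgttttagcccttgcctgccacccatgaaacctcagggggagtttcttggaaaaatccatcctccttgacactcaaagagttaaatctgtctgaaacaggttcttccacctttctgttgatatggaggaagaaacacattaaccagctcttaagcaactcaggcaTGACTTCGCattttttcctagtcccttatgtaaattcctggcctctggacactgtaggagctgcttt
Gstp1: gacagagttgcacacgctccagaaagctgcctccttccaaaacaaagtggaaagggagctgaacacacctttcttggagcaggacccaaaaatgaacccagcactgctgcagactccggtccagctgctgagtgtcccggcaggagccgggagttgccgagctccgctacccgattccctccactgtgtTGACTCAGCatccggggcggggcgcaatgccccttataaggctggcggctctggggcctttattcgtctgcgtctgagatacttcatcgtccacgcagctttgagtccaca
Gsta1 and Gsta3 share runs of sequence in these windows, the longest being 20 bases without a mismatch. The cores of Gsta1 and Gsta3 begin inside another shared run, so these matches are not independent of each other. An AP-1 site, searched as TGANTCA on both strands, was found in 1 of the 7 windows, that of Gstp1, where it overlaps the antioxidant core, and in 7.33% of all windows. The core of the xenobiotic response element, GCGTG on either strand, was found in 3 of the 7 windows and in 29.7% of all windows. A match describes these letters only and is not evidence of binding.

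The deposited values are on a log2 scale, with array medians from 6.29 to 6.40. The array of 611 mg/kg rat 2 stood apart: its log2 difference between the 3′ and 5′ probe sets of GAPDH, a sign of RNA degradation when large, was 2.89, while it ran from 0.93 to 1.56 elsewhere. Together with 76.5 mg/kg rats 2 and 3 it was also left out as an alternative. Hepatocyte markers averaged 14.0 to 14.2 (mean log2 level of 11 of 12 listed markers measured) in the 3 rats at 611 mg/kg and 14.0 to 14.1 in vehicle rats, with 0 of 11 called at 611 mg/kg (1 with an unadjusted p under 0.05, as had 3434 of all 14217 genes at this dose). The mean level of endothelial markers was 9.31 in vehicle, 9.29 at 76.5 mg/kg and 9.39 at 153 mg/kg. It was lower at the upper doses, 8.95 at 305.5 mg/kg and 8.84 at 611 mg/kg. In single rats it was 8.79 to 8.87 at 611 mg/kg against 9.20 to 9.43 in vehicle (7 of 9 markers measured). At 611 mg/kg 5 of the 7 were lower and 0 higher, where 2.42% of all genes were called lower and 5.04% higher. Stellate cell and fibroblast markers averaged 7.05 to 7.20 at 611 mg/kg and 7.34 to 7.63 in vehicle, with 2 of 12 lower, and macrophage markers 9.14 to 9.55 and 9.24 to 9.80, with 0 of 7 called (4 with an unadjusted p under 0.05). In whole liver, fewer cells of a type and less RNA per cell cannot be told apart, and the part of cell composition in the results below was not tested.

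The first question was at which doses the 7 genes differed from vehicle. A difference is given as log2 dose minus vehicle ± SE (n = 3 per dose, n = 5 for vehicle) from 1 limma fit, and a gene is said to have risen or fallen where the Benjamini-Hochberg adjusted p over all 14217 genes was under 0.05. At 611 mg/kg 6 of the 7 genes rose and 0 fell, where 5.04% of all genes were called higher and 2.42% lower. At 305.5 mg/kg 4 rose, Gsta1, Gsta3, Gstm1 and Gstt1, and 0 fell, where 0.753% of all genes were called higher and 1.47% lower. At 153 mg/kg 0 of the 7 were called (5 had an unadjusted p under 0.05, as had 1688 of the 14217 genes), with 0.408% of all genes higher and 0.338% lower. At 76.5 mg/kg 0 were called (4 had an unadjusted p under 0.05, as had 1527 of the 14217 genes), with 0.141% of all genes higher and 0.127% lower. All rats of the dose lay above all vehicle rats for 2 of the 7 genes at 76.5 mg/kg (3.14% of all genes), 4 at 153 mg/kg (8.3%), 5 at 305.5 mg/kg (6.37%) and 6 at 611 mg/kg (11.5%). The median difference of the 7 genes was 0.29 at 76.5 mg/kg, 0.37 at 153 mg/kg, 0.47 at 305.5 mg/kg and 0.63 at 611 mg/kg, beside medians between -0.00290 and 0.00940 over all genes. All 4 comparisons share the 5 vehicle rats. The count at 611 mg/kg was 5 without the 3 arrays that stood apart and 4 without rat 1 or 2 of that dose or vehicle rat 1 or 2. The count at 305.5 mg/kg was 0 without rat 1 or without rat 3 of that dose and 2 without vehicle rat 2 or 3. The 7 genes were chosen by name with earlier results of these data known, so their counts do not stand for the family. Of 16 other transferases measured, 3 were called higher and 0 lower at 611 mg/kg.

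**Figure D1:**
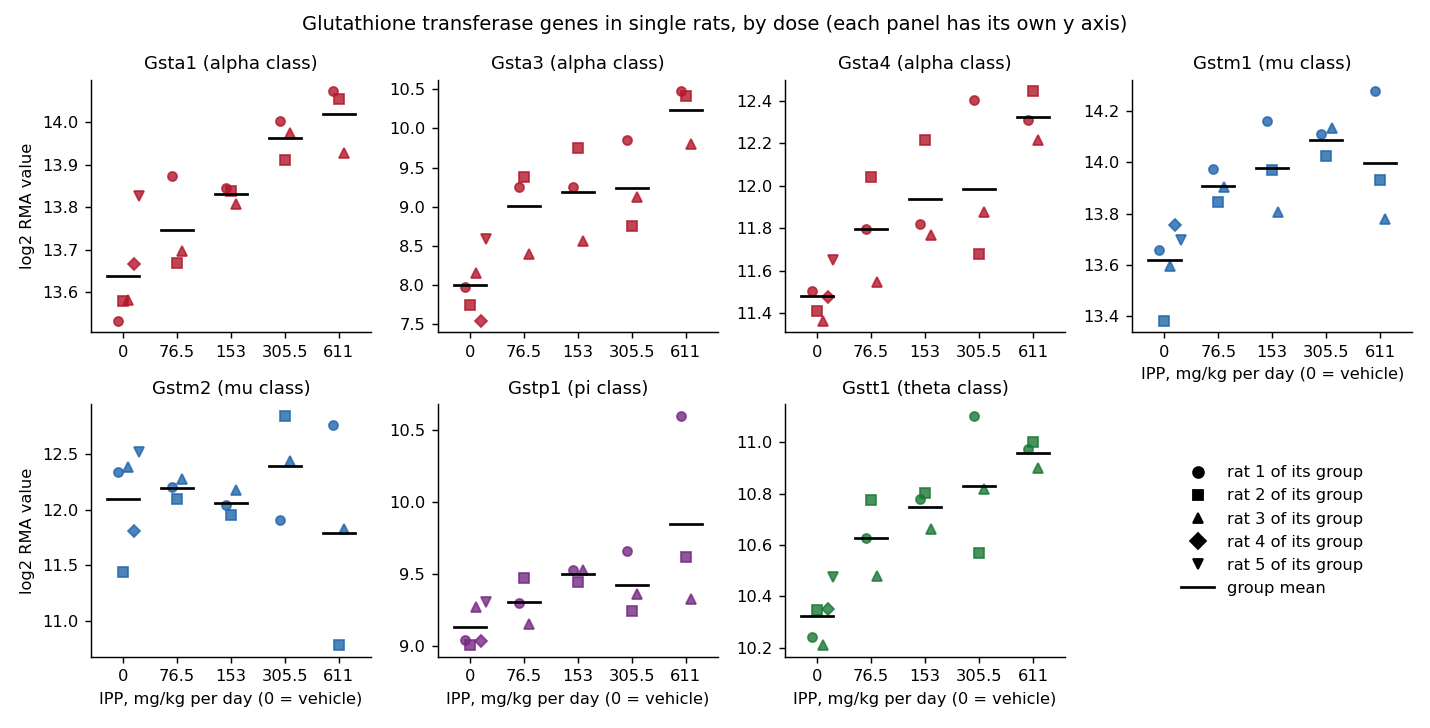
Log2 values of the 7 genes in each of 17 rats by dose, with 1 panel per gene and its own y axis, 1 symbol per rat and a bar at each group mean. All 3 rats at 611 mg/kg lie above all 5 vehicle rats for 6 genes, whereas Gstm2 runs from 10.78 to 12.76 at 611 mg/kg and overlaps vehicle.

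The alpha class held the largest difference of the 7 genes. Gsta3 had log2 values of 10.47, 10.42 and 9.80 in the rats at 611 mg/kg, against 7.97, 7.75, 8.16, 7.55 and 8.59 in vehicle rats. The groups did not overlap. Gsta3 rose by 2.23 ± 0.30 at 611 mg/kg, or 4.68-fold (adjusted p = 0.000408), and by 1.24 ± 0.30, or 2.36-fold, at 305.5 mg/kg (adjusted p = 0.0394). At the lower doses it was 1.01 ± 0.30 above vehicle at 76.5 mg/kg (adjusted p = 0.218) and 1.18 ± 0.30 at 153 mg/kg (adjusted p = 0.0992), and at each of these doses rat 3 lay within the vehicle range. The call at 305.5 mg/kg was lost in 10 of 30 alternatives, which included leaving out vehicle rat 1, 2, 3 or 4, 153 mg/kg rat 1, or 305.5 mg/kg rat 1 or 3. The difference at 153 mg/kg was called in 5 of 30, including that which left out 76.5 mg/kg rat 3.

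Gsta4, whose enzyme conjugates 4-hydroxynonenal and other products of lipid peroxidation, had values of 12.31, 12.45 and 12.22 at 611 mg/kg, against 11.50, 11.41, 11.36, 11.48 and 11.65 in vehicle rats. It rose by 0.84 ± 0.15, or 1.79-fold (adjusted p = 0.00267), with no overlap. At 305.5 mg/kg Gsta4 was 0.50 ± 0.15 above vehicle (adjusted p = 0.0871), although all 3 rats lay above every vehicle rat, and it was called in 3 of 30 alternatives. Gsta1, a main alpha subunit of hepatocytes, had values of 14.07, 14.05 and 13.93 at 611 mg/kg, against 13.53, 13.58, 13.58, 13.67 and 13.83 in vehicle rats. It rose by 0.38 ± 0.07, or 1.30-fold, at 611 mg/kg (adjusted p = 0.00367) and by 0.32 ± 0.07, or 1.25-fold, at 305.5 mg/kg (adjusted p = 0.0178). Whether signal near the top of the scale understates the differences of Gsta1 and Gstm1 was not tested. The 95% intervals at 611 mg/kg were 1.59 to 2.87 for Gsta3, 0.53 to 1.15 for Gsta4 and 0.23 to 0.53 for Gsta1. The Gsta1 call at 305.5 mg/kg was lost without rat 1 or rat 3 of that dose (adjusted p up to 0.0943 over the 30 alternatives), and none of the 3 alpha calls at 611 mg/kg was lost in any of the 30.

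The theta class gene Gstt1, whose enzyme acts on small halogenated compounds, had the tightest values at the top dose. They were 10.97, 10.9999 and 10.90 at 611 mg/kg, against 10.24, 10.34, 10.21, 10.35 and 10.47 in vehicle rats. Gstt1 rose by 0.63 ± 0.11, or 1.55-fold, at 611 mg/kg (adjusted p = 0.00190) and by 0.51 ± 0.11, or 1.42-fold, at 305.5 mg/kg (adjusted p = 0.0159). Its differences at 76.5 and 153 mg/kg were 0.30 ± 0.11 (adjusted p = 0.306) and 0.43 ± 0.11 (adjusted p = 0.0849). All 12 treated rats lay above all 5 vehicle rats, the lowest treated rat at 10.481 and the highest vehicle rat at 10.474. The same held for Gstm1 and for 0.549% of all genes. The call at 305.5 mg/kg was lost without rat 1 or rat 3 of that dose. At 153 mg/kg Gstt1 was called in 7 of 30 alternatives, which included leaving out 76.5 mg/kg rat 3 and either rat 1 or rat 2 of the 305.5 mg/kg group.

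The mu class genes differed from each other in their values. Gstm1, a main mu subunit of rat liver, had 14.28, 13.93 and 13.78 at 611 mg/kg, against 13.66, 13.38, 13.60, 13.76 and 13.70 in vehicle rats. It rose by 0.38 ± 0.10, or 1.30-fold, at 611 mg/kg (adjusted p = 0.0352) and by 0.47 ± 0.10, or 1.38-fold, at 305.5 mg/kg (adjusted p = 0.0233). In the order of means Gstm1 was highest at 305.5 mg/kg (14.09 ± 0.06, SD, n = 3), with 14.00 ± 0.25 (SD, n = 3) at 611 mg/kg, a difference of -0.09 ± 0.12 between the doses (adjusted p = 0.716). The 611 mg/kg call was lost in 11 of 30 alternatives, which included leaving out vehicle rat 1, 2, 3 or 5, and 611 mg/kg rat 1 (0.24, adjusted p = 0.148) or rat 2 (0.41, adjusted p = 0.0818). The 305.5 mg/kg call was lost in 6, which included leaving out vehicle rat 2 or 3 or any single rat of that dose.

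Gstm2, the other mu subunit, was the 1 gene of the 7 that was not called at any dose. Its values at 611 mg/kg were 12.76, 10.78 and 11.83, against 12.34, 11.44, 12.38, 11.81 and 12.52 in vehicle rats, so that the treated rats lay on both sides of the vehicle range. The difference was -0.31 ± 0.32 (adjusted p = 0.588), with a 95% interval from -0.99 to 0.37, and 0.20 without 611 mg/kg rat 2 (adjusted p = 0.795). That rat gave the lowest of the 17 Gstm2 values, on the array with the high GAPDH difference. Across the 17 arrays Gstm2 and the GAPDH difference had r = -0.78, while the other 6 genes had r from -0.12 to 0.37. Over the 16 arrays without that one, Gstm2 had r = -0.50, Gsta1 r = -0.44 and Gstm1 r = -0.35, and the other genes lay between -0.14 and -0.0065. These are descriptions over arrays that share dose groups, and the part of RNA quality in the Gstm2 values was not tested. At 76.5, 153 and 305.5 mg/kg the differences of Gstm2 were 0.09, -0.04 and 0.29, each ± 0.32.

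The pi class gene Gstp1 had values of 10.60, 9.61 and 9.33 at 611 mg/kg, against 9.04, 9.002, 9.27, 9.03 and 9.31 in vehicle rats. Rat 1 of that dose was the highest of all 17, and rat 3 lay just above the highest vehicle rat. Gstp1 rose by 0.72 ± 0.20, or 1.64-fold (adjusted p = 0.0351). Without 611 mg/kg rat 1 the difference was 0.34 (adjusted p = 0.120), and the call was lost in 11 of 30 alternatives, which included leaving out 611 mg/kg rat 2 (0.83, adjusted p = 0.0569) or vehicle rat 1, 2 or 4. With replicate numbers as a block it was 0.74 (adjusted p = 0.0906). At 76.5, 153 and 305.5 mg/kg Gstp1 was 0.18, 0.37 and 0.29 above vehicle, each ± 0.20, with adjusted p = 0.810, adjusted p = 0.484 and adjusted p = 0.576. Bile duct markers gave a mean log2 level of 6.37 to 6.51 at 611 mg/kg against 6.35 to 6.59 in vehicle (8 of 10 measured), and 6.51 in rat 1 of that dose. Of these markers Epcam, an epithelial adhesion protein gene, rose by 0.72 ± 0.17 (adjusted p = 0.0167) and Krt7, a keratin gene whose mean lay under log2 6, fell by 0.43 ± 0.12 (adjusted p = 0.0332). Epcam was 9.57 in rat 1 of that dose, 10.29 in rat 2 and 9.86 in rat 3, so its highest rat was not that of Gstp1. Neither marker was called without 611 mg/kg rat 2, and their part in the Gstp1 result was not tested.

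**Figure D2:**
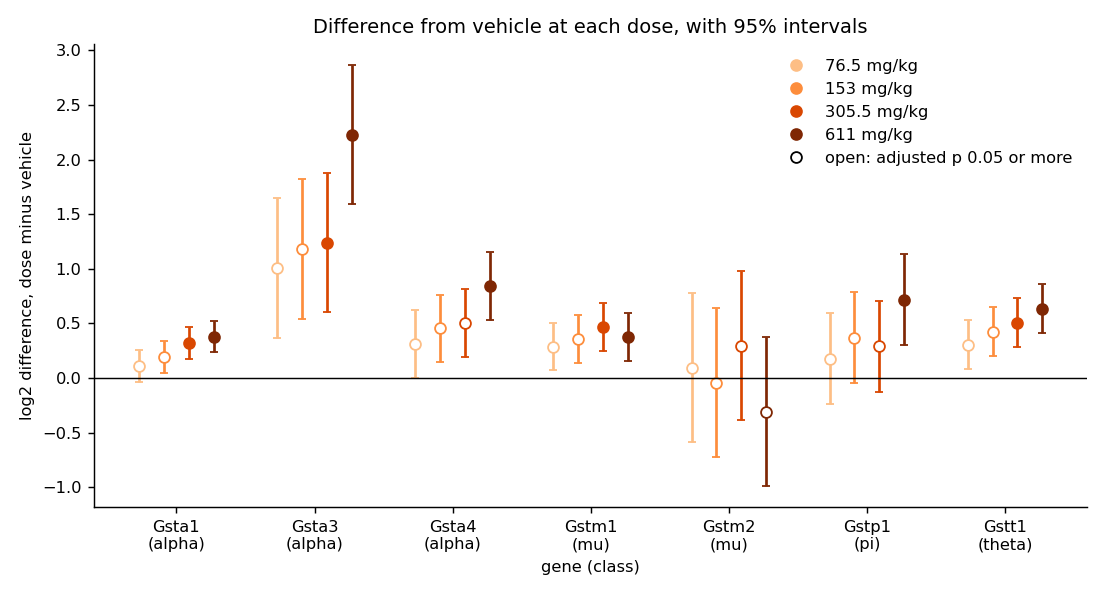
Log2 difference from vehicle of each gene at 4 doses (points) with 95% intervals (bars), filled where the adjusted p was under 0.05. Gsta3 is highest at every dose, 2.23 at 611 mg/kg, and the intervals of Gstm2 include 0 at every dose.

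The order of the doses was examined next. The rank of the group (0 to 4) had a positive slope for 6 of the 7 genes and 0 had a negative one past the test, where 3.96% of all genes were called with a positive slope and 2.78% with a negative one. Per rank the slope was 0.49 ± 0.07 for Gsta3 (adjusted p = 0.000511), 0.19 ± 0.03 for Gsta4 (adjusted p = 0.00132), 0.15 ± 0.02 for Gstt1 (adjusted p = 0.000663) and 0.10 ± 0.01 for Gsta1 (adjusted p = 0.000458). For Gstp1 it was 0.15 ± 0.04 (adjusted p = 0.0352) and for Gstm1 0.10 ± 0.03 (adjusted p = 0.0181), and both calls were lost without 611 mg/kg rat 1. Without that rat the Gstp1 slope was 0.092 (adjusted p = 0.0699), a larger move than that of Gstm1, whose slope was also 0.092 (adjusted p = 0.0566). The Gstp1 slope was also lost without vehicle rat 1, 2 or 4 and without 305.5 mg/kg rat 1. Over vehicle and the 3 lower doses alone, the calls of Gsta4 (0.18, adjusted p = 0.0669) and Gstp1 (0.11, adjusted p = 0.131) were lost, and on the dose in mg/kg that of Gstm1 was lost (adjusted p = 0.106). The order of group means followed the order of dose for Gsta1, Gsta3, Gsta4 and Gstt1, with neighbouring doses compared next.

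Neighbouring doses did not differ past the test for any of the 7 genes. Of 7 genes 0 were called at 153 against 76.5 mg/kg, at 305.5 against 153 mg/kg and at 611 against 305.5 mg/kg, where 0%, 0% and 0.324% of all genes were called in either direction. In the 30 alternatives run for these comparisons the counts stayed at 0. The largest difference was that of Gsta3 between 611 and 305.5 mg/kg, 0.99 ± 0.34 (unadjusted p = 0.00953, adjusted p = 0.205, 95% interval 0.27 to 1.70), the only unadjusted p under 0.05 among the 21 values. Gsta3 means were 8.005 ± 0.40 in vehicle (SD, n = 5), 9.01 ± 0.53 at 76.5 mg/kg, 9.19 ± 0.59 at 153 mg/kg, 9.24 ± 0.55 at 305.5 mg/kg and 10.23 ± 0.37 at 611 mg/kg (SD, n = 3 each). The 3 middle doses lay within 1 SD of one another.

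The classes were compared by change, since levels of different probe sets cannot be set against each other. Each class was represented by the brightest of its genes chosen by name, Gsta1, Gstm1, Gstp1 and Gstt1. Gstt1 was the only theta gene so chosen. The theta genes Gstt3 (mean log2 11.58) and Gstt2 (10.80) were brighter than Gstt1 (10.65) but were not used as leads. For each pair of leads, the log2 difference on the same array was taken. This difference was compared between the 6 rats at 305.5 and 611 mg/kg and the 5 vehicle rats. None of the 6 pairs passed the two-sided exact permutation test over 462 splits after adjustment (adjusted p from 0.104 to 0.805), whose smallest unadjusted p is 0.00433. The largest difference was alpha minus theta, in which Gsta1 changed less than Gstt1 by a log2 difference of -0.22 ± 0.07 (exact permutation p = 0.0173, adjusted p = 0.104). With all 12 treated rats the same pair gave -0.22 (exact permutation, adjusted p = 0.0175), and without 305.5 mg/kg rat 2 it was -0.27 (exact permutation, adjusted p = 0.0476). The remaining pairs ranged from -0.15 to -0.07, with errors of 0.09 to 0.21. A class lead does not stand for its class: in place of Gsta1 and Gstm1, the class means gave 0.71 for alpha minus mu against -0.07 for the leads. Class means also turned alpha minus theta positive. The alpha genes Gsta3 (2.23) and Gsta4 (0.84) differed from vehicle by more than Gstt1 (0.63) at 611 mg/kg. At 611 mg/kg the alpha genes spanned 0.38 to 2.23 and the mu genes -0.31 to 0.38, so that genes of 1 class lay further apart than the class leads.

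Single rats of a dose group differed in step for some of the genes. After each group's mean was taken off, Gsta4 and Gstt1 had r = 0.89 over the 17 arrays, Gsta3 and Gsta4 r = 0.83, and Gsta3 and Gstt1 r = 0.74. At 305.5 mg/kg rat 1 was the highest and rat 2 the lowest for all 3 genes. Gsta1 had r = 0.52 with Gstm1, 0.51 with Gsta3, 0.48 with Gstt1 and 0.34 with Gsta4. Gstm1 had r = 0.64 with Gstp1 and 0.15 with Gsta4. Gstm2 gave r = -0.35 with Gsta4 and 0.44 with Gstm1. These values describe 17 rats whose arrays share a normalization, and carry no test.

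**Figure D3:**
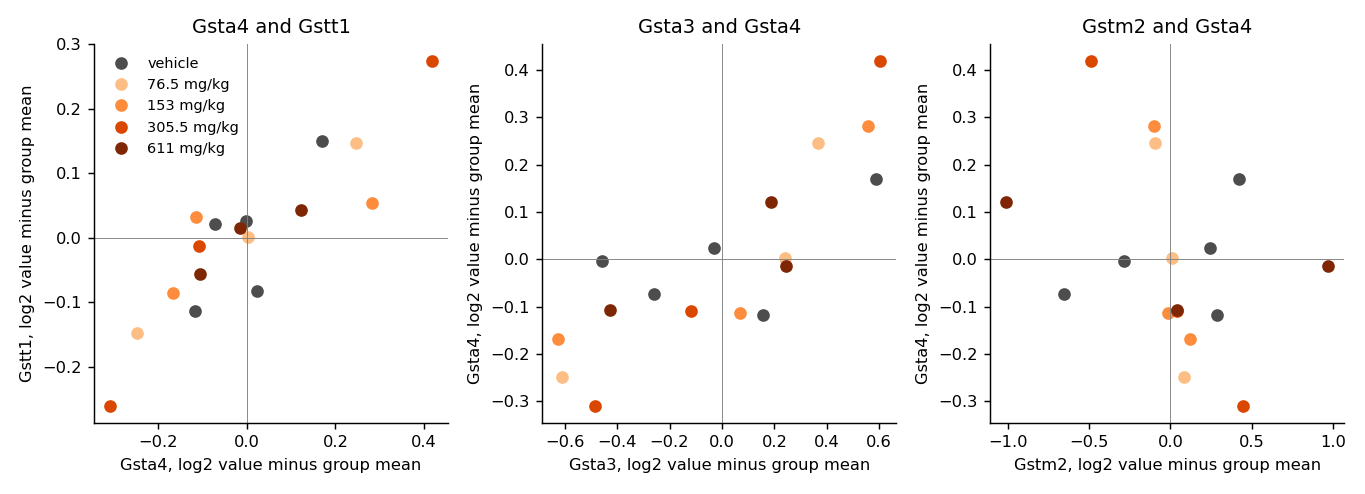
Log2 values minus the mean of the rat's own group, 1 point per rat and coloured by dose, for Gstt1 against Gsta4, Gsta4 against Gsta3 and Gsta4 against Gstm2. The first 2 pairs lie along a rising line (r = 0.89 and r = 0.83) and the last does not (r = -0.35).

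Genes most like each of the 7 over 17 arrays were sought among 10525 genes with a mean of at least log2 6, by Pearson correlation of the log2 values. Other GST genes were among the 3 most like genes of Gsta3 (Gsta4, r = 0.95, and Gstt1, r = 0.92), of Gsta4 (Gstt1 and Gsta3, both r = 0.95), of Gstt1 (Gsta4, r = 0.95) and of Gsta1 (Gstt3, r = 0.88). Ugt2b1, a glucuronosyltransferase gene, was the most like gene of Gstt1 (r = 0.96) and of Gsta1 (r = 0.89). The retinal dehydrogenase gene Aldh1a1 was among those of Gsta3 (r = 0.93), the D-lactate dehydrogenase gene Ldhd among those of Gsta4 (r = 0.94), the serine hydroxymethyltransferase gene Shmt1 among those of Gstt1 (r = 0.94) and the carboxylesterase gene Ces2c among those of Gsta1 (r = 0.88). For Gstm1 the 3 were Mthfsd, Vps51 and the kinase gene Csk (r from 0.84 to 0.87), and for Gstp1 the nuclear import gene Tnpo2, the kinetochore gene Nuf2 and the peroxisome gene Pex16 (r from 0.80 to 0.84). For Gstm2 they were the kinase gene Map3k12, Eral1 and the actin-binding gene Pfn1 (r = 0.90 each), and these stayed near 0.9 after group means were removed (r from 0.90 to 0.91). After group means were removed, Gsta1 had r = 0.76 with Ugt2b1, 0.46 with Gstt3 and 0.25 with Ces2c. The most like genes of Gsta3, Gsta4, Gstm1, Gstp1 and Gstt1 then had r from 0.58 to 0.89. The values rest on the same arrays and doses, and say nothing of shared function.

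Most of the other transferases were not called at any dose. Of 20 listed, 16 had a probe set of their own. At 611 mg/kg 3 of the 16 were higher and 0 lower (median 0.11), where 5.04% of all genes were called higher and 2.42% lower. At 305.5 mg/kg 1 was higher and 1 lower, where 0.753% of all genes were called higher and 1.47% lower. At 153 and 76.5 mg/kg 0 were called, where 0.408% and 0.141% of all genes were called higher and 0.338% and 0.127% lower. Gstt3, the theta gene next to Gstt1, rose by 1.56 ± 0.22, or 2.94-fold, at 611 mg/kg (adjusted p = 0.000670) and by 1.23 ± 0.22 at 305.5 mg/kg (adjusted p = 0.00694). Its values were 12.63, 12.34 and 12.24 at 611 mg/kg, against 11.20, 10.57, 10.62, 10.74 and 11.11 in vehicle rats, with no overlap. Mgst2, a microsomal transferase gene, rose by 0.60 ± 0.14 (adjusted p = 0.0167) and the kappa class gene Gstk1 by 0.31 ± 0.09 (adjusted p = 0.0431) at 611 mg/kg. Gstm5, a mu gene, fell by 0.52 ± 0.09 at 305.5 mg/kg (adjusted p = 0.00561) and was -0.23 ± 0.09 at 611 mg/kg (adjusted p = 0.129). The mu genes Gstm3, Gstm6l and Gstm7 lay between -0.19 and -0.14 at 611 mg/kg and Gstm4 at 0.44, none of them past the test. Without 611 mg/kg rat 2 the call of Gstk1 was lost and those of Gstt3 and Mgst2 were made.

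**Figure D4:**
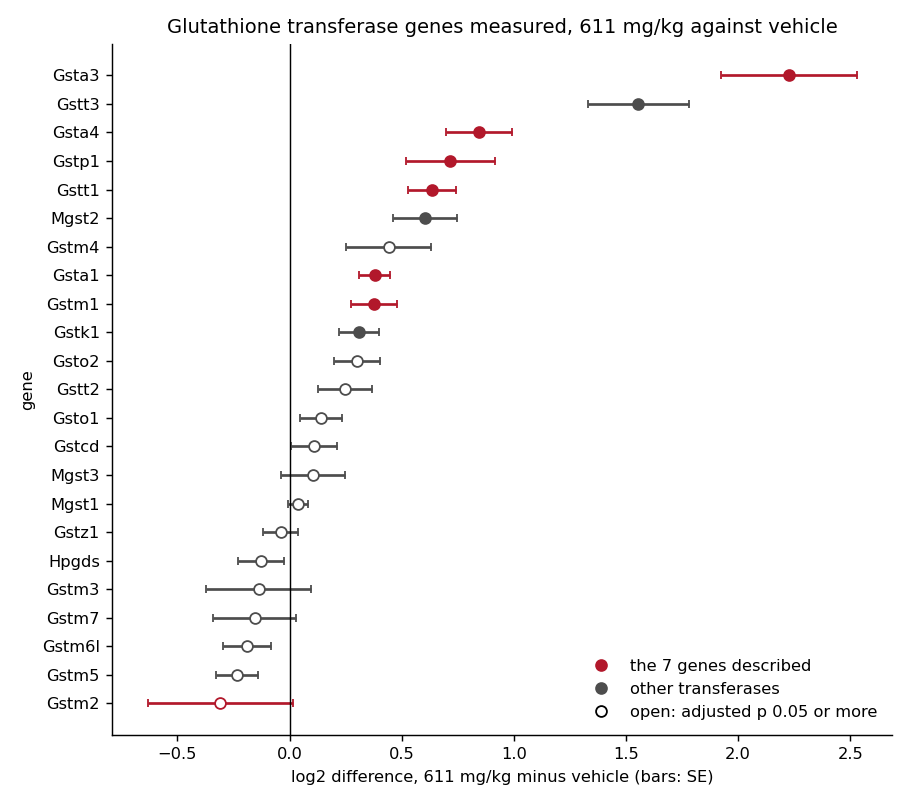
Log2 difference between 611 mg/kg and vehicle (points) with SE (bars) for all 23 transferase genes measured, in order of size and filled where the adjusted p was under 0.05. Gsta3 (2.23) and Gstt3 (1.56) head the order, and 9 of the 23 are filled. Of all genes 5.04% were called higher and 2.42% lower.

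Genes of glutathione supply and of conjugate handling were described from fixed lists at 611 mg/kg. At this dose 5.04% of all genes were called higher and 2.42% lower. Of 22 genes of glutathione synthesis and redox, 1 was higher and 1 lower (median 0.02). Srxn1, which repairs oxidized peroxiredoxins, rose by 0.48 ± 0.11 (adjusted p = 0.0142), and Cbs, the first enzyme of transsulfuration toward cysteine, fell by 0.72 ± 0.14 (adjusted p = 0.00558). Gclc and Gclm, the subunits of the enzyme that limits glutathione synthesis, were at -0.02 ± 0.18 (adjusted p = 0.957) and 0.59 ± 0.24 (adjusted p = 0.135). Without 611 mg/kg rat 2 the called genes were Cbs and the glutathione reductase gene Gsr. At 305.5 mg/kg 2 of the 22 were higher and 2 lower, where 0.753% of all genes were called higher and 1.47% lower. Chac1 rose there by 2.30 ± 0.30 (adjusted p = 0.000557) and at 153 mg/kg by 1.62 ± 0.30 (adjusted p = 0.0164). Srxn1 also rose at 305.5 mg/kg (0.47 ± 0.11, adjusted p = 0.0348). Cth (-0.46 ± 0.12, adjusted p = 0.0465) and Ggct (-0.56 ± 0.14, adjusted p = 0.0396) fell at that dose. At 611 mg/kg Chac1 was at 0.64 ± 0.30 (adjusted p = 0.206). Of 14 genes of conjugate processing and export 3 were higher and 1 lower (median -0.11). Abcc3, a basolateral exporter of conjugates, rose by 3.55 ± 0.36 (adjusted p = 4.34e-05) and the canalicular exporter gene Abcc2 by 0.47 ± 0.10 (adjusted p = 0.00800). Ggt1, which removes the glutamyl group from conjugates, rose by 0.40 ± 0.11 (adjusted p = 0.0397), a call lost without 611 mg/kg rat 2. Nat8, an enzyme that acetylates cysteine conjugates, fell by 0.64 ± 0.19 (adjusted p = 0.0448). Its falls were larger at the lower doses: -1.15 ± 0.19 at 76.5 mg/kg (adjusted p = 0.0145), -0.89 ± 0.19 at 153 mg/kg (adjusted p = 0.0317) and -1.08 ± 0.19 at 305.5 mg/kg (adjusted p = 0.00466).

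Regulators of GST genes were not called at 611 mg/kg, with 0 of 17 past the test (median -0.12). An unadjusted p under 0.05 was found for 3 of the 17 and for 3434 of all 14217 genes. The smallest p-values were those of Keap1, the repressor of NRF2 (0.29 ± 0.11, adjusted p = 0.126), and of Ahr, the aryl hydrocarbon receptor (-0.31 ± 0.14, adjusted p = 0.180). Known targets of such regulators outside the GST family were called higher in part, where 5.04% of all genes were called higher and 2.42% lower. Of 13 NRF2 targets 4 rose and 0 fell at 611 mg/kg (median 0.36): Aldh1a1 by 1.22 ± 0.16 (adjusted p = 0.000322), the quinone reductase gene Nqo1 by 1.03 ± 0.22 (adjusted p = 0.00911), the aflatoxin aldehyde reductase gene Akr7a3 by 1.23 ± 0.27 (adjusted p = 0.0115) and the epoxide hydrolase gene Ephx1 by 0.71 ± 0.17 (adjusted p = 0.0199). Hmox1, heme oxygenase, was at 0.36 ± 0.48 (adjusted p = 0.683). The 9 NRF2 targets not called, Hmox1 among them, ran from -0.44 for Osgin1 to 0.63 for Me1. Of the 16 NRF2 targets listed, Ugt1a6, Ftl1 and Fth1 were not measured. Of 19 CAR and PXR targets listed 14 were measured, and Cyp2b1, Cyp2b2, Cyp2c6, Cyp3a23/3a1 and Ugt1a1 were not. Of the 14 measured, 4 rose and 0 fell at 611 mg/kg (median 0.35). Ces2c rose by 2.80 ± 0.16 (adjusted p = 1.99e-08) and Ugt2b1 by 1.44 ± 0.17 (adjusted p = 0.000131). The heme synthesis gene Alas1 rose by 0.94 ± 0.13 (adjusted p = 0.000541) and the exporter gene Abcb1a by 1.18 ± 0.25 (adjusted p = 0.00946). The cytochrome P450 genes Cyp2b3, Cyp3a2, Cyp3a9, Cyp3a18, Cyp2c7 and Cyp2a1 were not called, from -0.25 for Cyp2b3 to 0.45 for Cyp3a18. Akr7a3 lost its call without 611 mg/kg rat 2.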

How the data were processed

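The deposited table holds log2 values that the authors made by RMA, per the submitters' processing notes (software version not given in the sources used here). RMA corrects background, equalizes the distributions of arrays and summarizes each probe set, so a change shared by most genes would be removed. Of 31099 probe sets, 20826 carried 1 gene symbol in the platform annotation of 2016, and the brightest by mean over 17 arrays stood for each of 14217 genes. The file holds no detection calls, and dim genes were kept.

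Differences were fitted with limma 3.58.1 in R 4.3.3 in 1 model over all arrays (eBayes with trend), which was tested on simulated data. P-values were adjusted over all genes by Benjamini-Hochberg, separately for each comparison, and calls were made under 0.05. Class leads were compared with exact permutation in scipy 1.17.1. The members, gene lists, tests and alternatives were chosen with earlier results of these data known. Genes named besides the 7 followed a written rule: other transferases called at any dose, up to 5 called genes (by smallest p) of each other list at 611 mg/kg or its 2 smallest p-values, and the 3 most correlated genes of each member. Gclc, Gclm, Chac1, Hmox1, Gsr, Gstm3, Gstm4, Gstm6l, Gstm7, Gstt2 and the cytochrome P450 genes were named after their values were seen. So were Cth, Ggct, Osgin1 and Me1. Marker lists gave counts and levels by the same fit. A list of 8 pancreas markers had 1 called lower at 611 mg/kg (Cela1), as were 2.42% of all genes. Labels do not say that replicate numbers pair rats. Deviations from group means correlated from -0.26 to 0.40 (median 0.01) over the 30 pairs with the same number. Over the 84 pairs with different numbers the range was -0.35 to 0.34 (median -0.02). No pairing was used in the main fit. The labels used here name no scan date or batch. The number of arrays limits the precision.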

Additional observations from a re-analysis of the deposited data

How the results depend on the processing

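Of the 30 alternatives run for each dose against vehicle, none reversed a difference of Gsta1, Gsta3, Gsta4, Gstm1, Gstp1 or Gstt1. Those that changed only the threshold, the eBayes setting, the genes tested or rats outside the 2 groups could not change a difference. The number of the 7 genes called at 76.5 mg/kg was 4 with array weights in place of 0. At 153 mg/kg it was 3 with only the 2 groups compared, and 2 with array weights, with the GAPDH covariate or without the 3 arrays that stood apart, in place of 0. At 305.5 mg/kg it was 0 at an adjusted p under 0.01. Leaving out single rats gave counts of 0 to 0 at 76.5 mg/kg, 0 to 2 at 153 mg/kg, 0 to 4 at 305.5 mg/kg and 4 to 6 at 611 mg/kg and for the slope. The replicate block gave 5 called genes at 611 mg/kg and for the slope, with Gstp1 lost in both (adjusted p = 0.0906 and adjusted p = 0.0886), and changed no other call of the 7 genes against vehicle. Over all genes the calls at 611 mg/kg were 1060, against 387 with the block, 426 without 611 mg/kg rat 2, 661 without vehicle rat 5, 1884 with array weights and 330 at an adjusted p under 0.01.

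For the class leads, alpha minus theta was called with all 12 treated rats (-0.22) and after a repeated quantile normalization (-0.23). At 611 mg/kg alone alpha minus mu was 0.0034 and pi minus theta 0.082. Class means gave 0.71 for alpha minus mu, 0.42 for alpha minus pi and 0.35 for alpha minus theta, against negative values for the leads. Leaving out single rats gave -0.11 to -0.03 for alpha minus mu, -0.21 to 0.024 for alpha minus pi, -0.27 to -0.18 for alpha minus theta, -0.16 to 0.064 for mu minus pi, -0.21 to -0.09 for mu minus theta and -0.24 to -0.0032 for pi minus theta. The values above 0 came without 611 mg/kg rat 1.

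Gstm2, never called, changed sign in several alternatives. At 76.5 mg/kg it was -0.038 with the GAPDH covariate and -0.072 without vehicle rat 2. At 153 mg/kg it was 0.0020 with the block, 0.02, 0.03 and 0.063 without vehicle rat 1, 3 or 5, and 0.0093 without 153 mg/kg rat 2. At 611 mg/kg it was 0.20 without the 3 arrays, and -0.79 to 0.20 when single rats were left out. Its slope was 0.013 with array weights, 0.062 without the 3 arrays, 0.0050 with the GAPDH covariate and 0.071 without the 611 mg/kg group, and -0.088 to 0.061 when single rats were left out. The cause of these changes was not tested.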
